A study of Rattus norvegicus with 15 samples.

Results

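Transcripts of the retinoid receptors and of the proteins that carry retinoids were followed across the olfactory epithelium of 8 rats. The members were named by gene: the retinoic acid receptors Rara, Rarb and Rarg, the retinoid X receptors Rxra, Rxrb and Rxrg, the plasma retinol carrier Rbp4, and the cellular retinoic acid binding proteins Crabp1 and Crabp2. Every probe whose gene name in the array annotation was one of these 9, once the endings _predicted and _mapped were removed, was taken as a member, whatever its values. This gave 10 probes for 8 of the 9 genes among the 41012 probes and 18365 gene names of the array, with 2 probes each for Rarb and Rxrg and none for Rarg.

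All rats were Brown Norway animals aged 6 weeks for which the labels name no treatment, 4 males (rats 1, 2, 5 and 6) and 4 females (rats 3, 4, 7 and 8). Total RNA from the epithelium of nostril A and of nostril B was hybridized separately, and male rat 1 was measured on nostril A alone, which gave 15 one-color arrays. The tissue is a mixture of neurons, supporting cells, stem cells, glands and connective tissue, so fewer cells of a type and less RNA per cell cannot be told apart.

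Retinol travels in plasma on Rbp4 and is oxidized inside cells to retinoic acid, the ligand of the retinoic acid receptors. These receptors pair with retinoid X receptors on DNA, and the retinoid X receptors also pair with thyroid hormone, vitamin D and peroxisome proliferator receptors. Crabp1 and Crabp2 hold retinoic acid in the cytoplasm, Crabp2 being known to hand it to the receptors, and the pathway is known for its part in the regional patterning and renewal of olfactory neurons.

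What each probe reads is set by its sequence of 60 bases. The sequences below are those of 5 of the 10 member probes, each with at least 1 reading frame free of stop codons over its 60 bases, and they are shown because the receptor and binding protein signals described later rest on these letters. No stretch is marked in capitals.

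Rara A_44_P461343: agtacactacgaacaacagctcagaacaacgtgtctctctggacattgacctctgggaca
Rarb A_43_P15897: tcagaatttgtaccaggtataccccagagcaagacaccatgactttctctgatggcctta
Rxrb A_44_P402675: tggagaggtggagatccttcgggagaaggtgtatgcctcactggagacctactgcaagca
Rxrg A_44_P328016: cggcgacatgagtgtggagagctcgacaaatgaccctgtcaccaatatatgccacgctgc
Crabp1 A_42_P525886: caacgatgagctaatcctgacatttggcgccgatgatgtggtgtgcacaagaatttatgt

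Positions follow the array annotation, on build rn3 of the rat genome. The Rara probe (NM_031528) was placed on chromosome 10, 87764271 to 87764471, a span of 201 bases. The Rxrg probe shown (NM_031765) was placed on chromosome 13, 83302504 to 83302665, over 162 bases, and the Crabp1 probe (XM_236253) on chromosome 8, 58339877 to 58344185, over 4309 bases. These spans are longer than the 60 bases of a probe, so the annotation has these 3 probes cross from one exon to another, and the other 7 each cover 60 bases of the genome. The other Rxrg probe, A_44_P269316, lies on chromosome 13 at 83312729 to 83312788 and has a stop codon in all 3 frames. The Rarb probes stand for different predicted transcripts. A_43_P15897 (XM_223843) was placed on the unanchored part of chromosome 15, named 15_random, at 319377 to 319436, and A_44_P404472 (XM_001059523, transcript variant 2) at 324128 to 324187 of the same piece. The Rxrb probe (NM_206849) lies on chromosome 20, 4955759 to 4955818, the Rxra probe A_44_P172974 (NM_012805) on chromosome 3, 6689985 to 6690044, the Rbp4 probe A_44_P264611 (XM_215285) on chromosome 1, 242637284 to 242637343, and the Crabp2 probe A_44_P129749 (NM_017244) on chromosome 2, 179984104 to 179984163. Exon, intron and untranslated region were not given for them.

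Retinoic acid receptors are known to bind repeats of the hexamers AGGTCA or AGTTCA or GGTTCA or GGGTCA, and the promoter of Rarb itself is a textbook target. The windows RefSeq gives around annotated gene starts (build GRCr8, 250 bases before to 50 after) were searched on both strands for 2 such hexamers in the same direction 5 bases apart, an arrangement called DR5. It was present in 128 of 33469 windows (0.382%), in 1 of the 10 windows of the 9 members, that of Rarb, and in 1 of 95 windows of the other pathway genes described later, that of Cyp26a1, which breaks retinoic acid down. The same hexamers 1 base (0.233% of windows) or 2 bases (0.17%) apart were in no member window. Both elements are given with the hexamers in capitals, the first on the plus strand at chr15:11336416-11336432, bases 25 to 41 after the Rarb start, and the second on the minus strand at chr1:244883730-244883746, bases -92 to -76 relative to the Cyp26a1 start.

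Rarb DR5: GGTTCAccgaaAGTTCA
Cyp26a1 DR5: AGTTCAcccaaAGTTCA

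These matches describe letters only, and binding was not measured.

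Signals are given as log2 of the processed intensity over the median of the array, a scale on which 0 is the array median and 1 unit is a doubling. Array medians ranged from 57.4 to 83.4 intensity units, 26228 to 28730 probes were well above background on each array, and the lowest signal called so was 10.01 to 14.5 units. The arrays lay on 4 slides: males 1 and 2 and nostril A of female 3 on slide 1, nostril B of female 3 and female 4 on slide 2, males 5 and 6 on slide 3, and females 7 and 8 on slide 4. Of the 11 marker genes listed for mature olfactory neurons, 10 had a probe and 9 were detected on every array, with a mean log2 level of 5.46 to 5.62 in males and 5.52 to 5.78 in females, so the defining markers of the labelled tissue were present. Krt14 (basal cells), S100b (ensheathing and Schwann cells) and Ptprc and Csf1r (immune cells) were not well above background on any array.

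All 10 member probes were detected on all 15 arrays, against 61.2% of the probes of the array, and none was saturated. The plasma carrier, both binding proteins and all receptors of the set except Rarg were thus above background. One probe outside the naming rule, A_44_P490212 (XM_217064), is described in the annotation as Rarg without carrying the gene name. It was also detected on all 15 arrays, at -0.84 to 0.16 on the log2 scale, and its sex difference was -0.05 (SE 0.16). Another, A_44_P243439 (XM_344307), is described as similar to retinoic acid receptor beta-2 and lay between -0.85 and 0.36. Its sex difference was -0.46 (SE 0.17, limma, adjusted p = 0.214). The sexes did not overlap, as on 11.3% of all tested probes. The lowest male mean was -0.43 and the highest female mean -0.48, and male 1, the highest at 0.36, rests on 1 array. These 2 probes are not counted below.

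**Figure D1:**
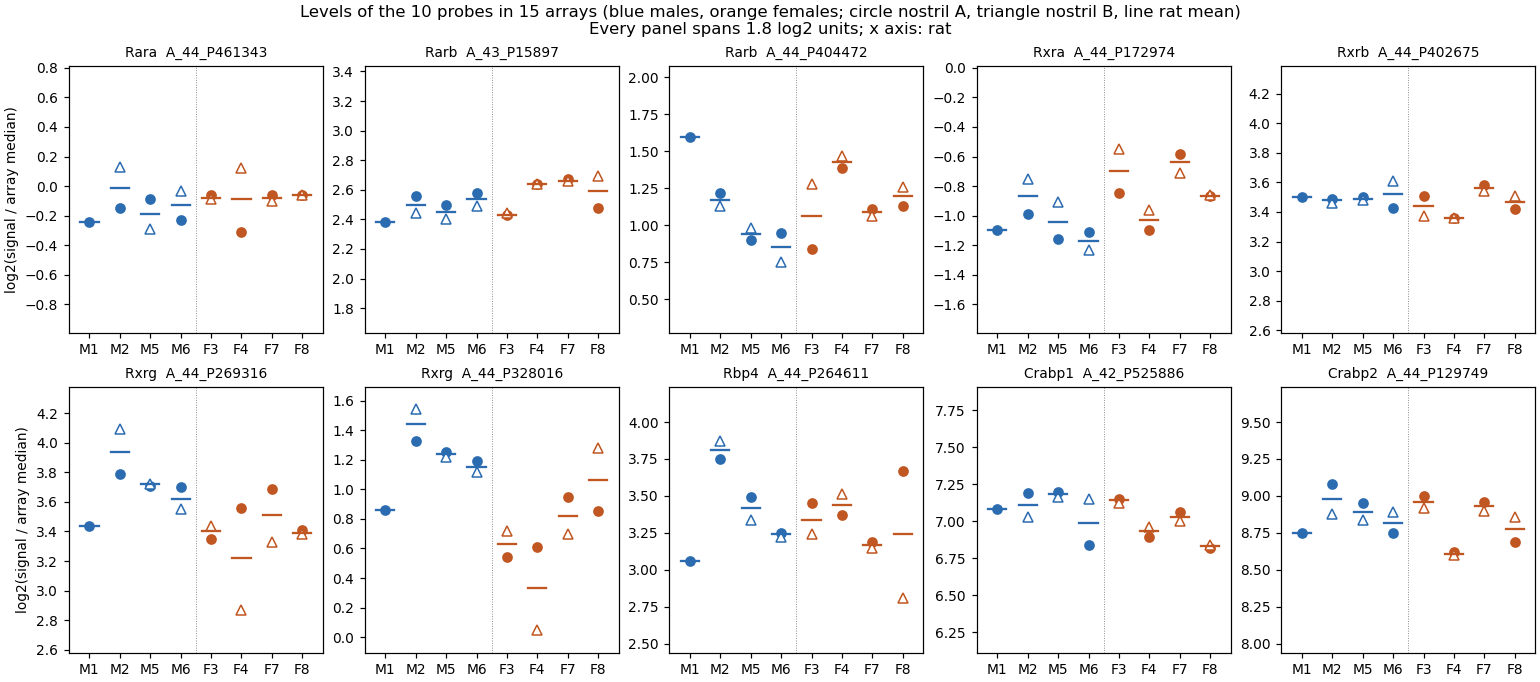
Log2 level relative to the array median (y axis, 1.8 log2 units in every panel) of each member probe by rat (x axis, M male, F female, with the rat number); circles are nostril A, triangles nostril B and bars the rat mean. Rxrb stays between 3.36 and 3.61, while the Rxrg probe A_44_P328016 runs from 0.05 in nostril B of female 4 to 1.54 in nostril B of male 2.

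Of the carriers and binding proteins, Rbp4 read 3.06 in male 1, 3.81 in male 2, 3.42 in male 5 and 3.24 in male 6, and 3.34, 3.44, 3.17 and 3.24 in females 3, 4, 7 and 8 (rat means, log2). Male 2 stood highest and the sexes overlapped. The nostrils of female 8 stood far apart, at 3.67 in A and 2.81 in B, a B minus A difference of -0.85 where the other 6 rats lay between -0.22 and 0.14. Crabp1 stayed between 6.82 and 7.20 over the 15 arrays (median 7.06), with male 5 highest at 7.18 and female 8 lowest at 6.83. Crabp2 stayed between 8.60 and 9.08 (median 8.88), with male 2 highest at 8.98 and female 4 lowest at 8.61. Over the rat means Crabp1 ranged 1.27-fold and Crabp2 1.29-fold, where the median of all tested probes, of any brightness, was 1.38-fold. A level on this scale cannot be set against that of another probe, since probes differ in how well they bind.

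Among the retinoic acid receptors, Rara lay near the array median in every rat, between -0.24 (male 1) and -0.01 (male 2), a range of 1.17-fold. Rarb A_43_P15897 read 2.38, 2.50, 2.45 and 2.54 in males 1, 2, 5 and 6 and 2.43, 2.64, 2.66 and 2.59 in females 3, 4, 7 and 8. Rarb A_44_P404472 read 1.60, 1.17, 0.94 and 0.85 in the same males and 1.06, 1.43, 1.09 and 1.20 in the same females. Male 1 was thus lowest on the first Rarb probe and highest on the second. Over the 8 rats the probes of Rarb did not run together (Pearson r = -0.11, exact permutation test, p = 0.785; Spearman rho = 0.00, exact permutation test, p = 1; r = 0.68 without male 1 and female 7; within slides over the 15 arrays r = 0.01). Among the 1819 named genes with 2 probes detected on all arrays, the median r was 0.61 and 13.7% were at or below the value of Rarb.

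The retinoid X receptors held the steadiest member and the most variable one. Rxrb stayed between 3.36 in female 4 and 3.56 in female 7, 1.15-fold over the rats, and its SD between rats of 0.06 was larger than that of only 2.09% of tested probes. Rxra read -1.10, -0.87, -1.04 and -1.17 in males 1, 2, 5 and 6 and -0.70, -1.03, -0.64 and -0.87 in females 3, 4, 7 and 8. Females 3 and 7 were highest, and female 4 lay among the males. Rxrg A_44_P328016 read 0.86, 1.44, 1.24 and 1.15 in males 1, 2, 5 and 6 and 0.63, 0.33, 0.82 and 1.06 in females 3, 4, 7 and 8. Rxrg A_44_P269316 read 3.44, 3.94, 3.72 and 3.62 in these males and 3.40, 3.22, 3.51 and 3.39 in these females. Male 2 was highest and female 4 lowest on both Rxrg probes, with the sexes overlapping through male 1.

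The probes of Rxrg followed each other over the rats. Pearson r over the 8 rat means was 0.90 (exact permutation test, p = 0.00295, adjusted 0.0059 over the 2 genes with 2 probes) and Spearman rho 0.83 (exact permutation test, p = 0.0154). Without female 4 and male 2 it was 0.73, and within slides over the 15 arrays 0.82. Of the 1819 genes with 2 such probes, 17.9% reached the r of Rxrg.

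**Figure D2:**
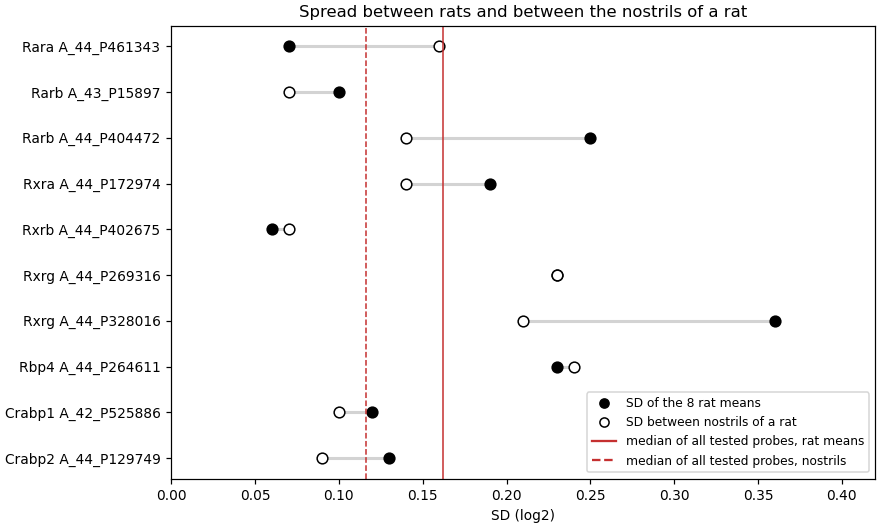
SD on the log2 scale (x axis) of the 8 rat means (filled) and between the nostrils of a rat (open) for each member probe, with red lines at the medians of all tested probes (0.162 between rats, 0.116 between nostrils). Rxrg A_44_P328016 has the largest SD between rats, 0.36, and for Rara, Rxrb and Rbp4 the nostrils of a rat differed by at least as much as the rats; the filled and open points of Rxrg A_44_P269316 coincide at 0.23.

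The first comparison asked whether any member differs between males and females. None did at the study's false discovery rate of 1%: 0 of the 10 member probes passed (limma on rat means, adjusted p from 0.209 to 0.899), and 12 of all 27625 tested probes did (0.0434%, and 0.0724% at 5%). The 2 Rxrg probes had an unadjusted p below 0.05, as did 17.1% of all tested probes. Rats of the sexes overlapped for every member, whereas they were apart for 11.3% of all tested probes. The median size of the sex difference was 0.0955 over the members and 0.118 over all tested probes.

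Rxrg, the retinoid X receptor with the narrowest tissue range, had the largest sex differences of the members. The mean of A_44_P328016 was 1.17 ± 0.24 in males and 0.71 ± 0.31 in females (SD, 4 rats each), a female minus male difference of -0.46 (SE 0.17, 95% interval -0.84 to -0.08, limma, unadjusted p = 0.0223, limma adjusted p = 0.214). The mean of A_44_P269316 was 3.68 ± 0.21 in males and 3.38 ± 0.12 in females, a difference of -0.30 (SE 0.11, 95% interval -0.54 to -0.06, limma, unadjusted p = 0.0211, limma adjusted p = 0.209). On a linear scale these were female to male ratios of 0.727 and 0.812. The differences kept their sign among rats 1 to 4 on slides 1 and 2 (-0.67 and -0.38) and among rats 5 to 8 on slides 3 and 4 (-0.25 and -0.22), with 2 rats of each sex in each. Slide 3 held males alone and slides 2 and 4 females alone, so beyond slide 1 sex and slide cannot be told apart.

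Rxra was the member with the next largest value, -1.05 ± 0.13 in males and -0.81 ± 0.18 in females, a difference of 0.24 (SE 0.12, 95% interval -0.04 to 0.51, limma, adjusted p = 0.359). Among rats 1 to 4 it was 0.12 and among rats 5 to 8 it was 0.35. The differences of the other members lay between -0.11 (Crabp1) and 0.12 (Rarb A_43_P15897). The narrowest interval was that of Rxrb, whose female to male ratio was 0.973 with bounds of 0.884 and 1.07, and the bounds were 0.913 and 1.19 for Rara, 0.826 and 1.04 for Crabp1, 0.85 and 1.11 for Crabp2, and 0.753 and 1.18 for Rbp4. These bounds reflect the spread of the rats in a fit without slide, so they do not cover a slide effect that could hide a sex difference. A p above the threshold does not show equal levels. Slide 1 alone held both sexes, with nostril A of female 3 beside 3 arrays of 2 males, so values there rest on a single female array and are given with no test. On it the Rarb probe A_44_P404472 differed by -0.47, against 0.05 over all rats (adjusted p = 0.899), and the Rxrg probes by -0.71 and -0.42.

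**Figure D3:**
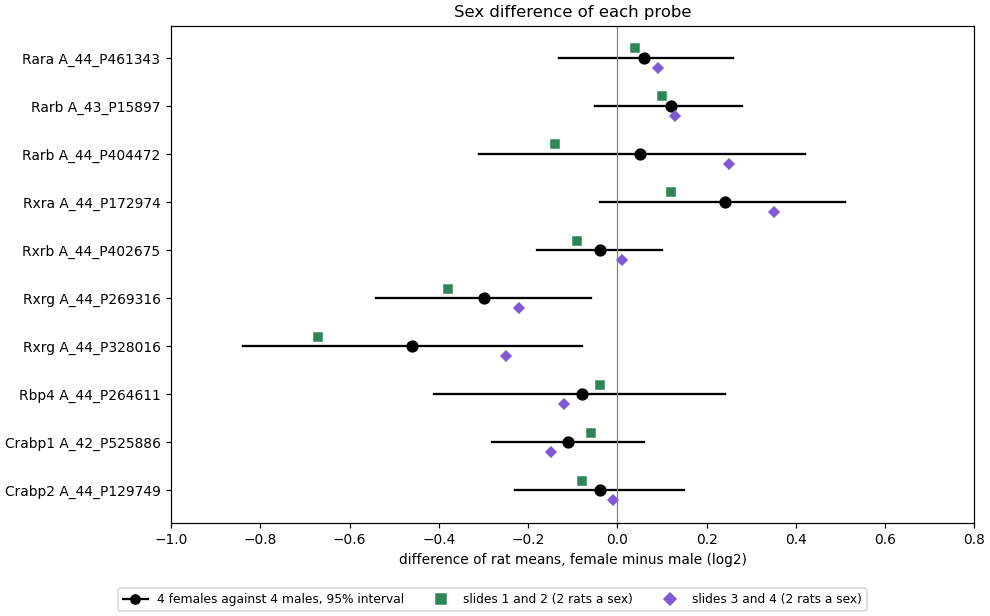
Female minus male difference of rat means on the log2 scale (x axis) for each member probe, with the 95% interval of the limma fit over 4 males and 4 females (black), and the same difference among rats 1 to 4 on slides 1 and 2 (squares) and among rats 5 to 8 on slides 3 and 4 (diamonds). Only the intervals of the Rxrg probes, at -0.46 and -0.30, leave out 0 before adjustment.

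Levels of other cell type markers were set against the members over the rats, and their part in the member values was not tested. The comparison took in 120 pairs of a member probe with a marker list, each list being the mean log2 level of its probes detected on every array, and was made after the member values were seen. An unadjusted p below 0.05 was found for 15 pairs, on 7 member probes, and 1 pair of a member and a list passed 5% after adjustment. How many of all tested probes reach such a p with these lists was not counted, so the 15 pairs cannot be read as a trait of the members. That pair was Rxra with the blood list, Rxra being high where blood signal was low. The blood list held probes on every array for 3 of its 8 genes, Hbb, Alas2 and Slc4a1. The blood level was 7.00, 5.34, 7.31 and 7.91 in males 1, 2, 5 and 6 and 4.17, 7.07, 4.03 and 4.99 in females 3, 4, 7 and 8, and no rat lay between 5.34 and 7.00. The 4 rats below this gap (male 2 and females 3, 7 and 8) had Rxra at -0.87 or higher and the 4 above it at -1.03 or lower. The gap was seen in these same values, and the parts of sex and blood signal in Rxra were not tested. The list itself was lower in females by a mean difference of -1.83. Pearson r over the 8 rats was -0.97 (exact permutation test, p = 0.000322, adjusted 0.0387) and Spearman rho -0.93 (exact permutation test, p = 0.00223, adjusted 0.268). It was -0.95 without females 3 and 7, -0.98 to -0.96 with 1 rat left out, and -0.78 within slides over the 15 arrays. The 4 rats on each side of the gap are too few to give the relation within either. Of all tested probes, 26 of 27625 (0.0941%) had an r of this size with the blood list in either direction, and 0.0217% in the same direction.

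The Rxrg probes ran with several lists, and none of these relations passed after adjustment. One was the list for olfactory ensheathing and Schwann cells, the glia that wrap olfactory axons. It had probes for 7 of 8 genes, of which 5 were detected on every array and S100b on none, and its mean level was 4.36 to 4.85 in males and 3.75 to 4.40 in females. Pearson r to A_44_P328016 was 0.86 (exact permutation test, p = 0.00685, adjusted 0.274), Spearman rho 0.88 (exact permutation test, p = 0.00724), r without female 4 and male 2 was 0.85 and r within slides 0.60. A_44_P269316 gave r = 0.79 (exact permutation test, p = 0.0212, adjusted 0.348), rho = 0.69 (exact permutation test, p = 0.0694), 0.53 without the same 2 rats and 0.62 within slides. Of its genes detected on every array, Sox10, a glial transcription factor, ran closest, with r = 0.90 to A_44_P328016 and 0.89 to A_44_P269316, and the myelin gene Mbp ran least close, with 0.19 and 0.17 on A_43_P11782. Against the list for sustentacular cells, the supporting cells of the epithelium, A_44_P328016 ran in the opposite direction, with r = -0.89 (exact permutation test, p = 0.00293, adjusted 0.176), rho = -0.90 (exact permutation test, p = 0.00456), -0.81 without the same rats and -0.55 within slides. For A_44_P269316 the same list gave r = -0.81 (exact permutation test, p = 0.0122, adjusted 0.292), rho = -0.81 (exact permutation test, p = 0.0218), -0.69 without the same rats and -0.68 within slides. This list was 8.40 to 8.48 in males and 8.57 to 8.73 in females, with no overlap of the sexes, on 4 probes for 3 of 9 genes. The lists for stroma (0.78), bone (0.75) and immune cells (0.74) also ran with A_44_P328016, and with 0.76, 0.81 and 0.85 without female 4 and male 2. For A_44_P269316 they gave 0.71, 0.64 and 0.74, of which bone had an unadjusted p above 0.05 (exact permutation test, p = 0.088). Without these rats, immune cells (0.94), stroma (0.74) and bone (0.73) gave a larger r than the ensheathing list (0.53). An r as large as that of A_44_P328016 was reached in either direction by 2.51% of tested probes for the ensheathing list and by 3.46% for the sustentacular list, and in the same direction by 0.615% and 0.376%.

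Crabp1 gave r = 0.74 with the 7 probes of the list for immature olfactory neurons (exact permutation test, p = 0.0366, adjusted 0.348; rho = 0.71, exact permutation test, p = 0.0576), 0.69 without females 4 and 8 and 0.94 within slides. Its closest gene there was Dpysl3, known in growing axons, with r = 0.98 over the rats. The probes of Stmn1 disagreed, with 0.89 on A_43_P11845 and -0.13 on A_44_P401165. The remaining pairs with an unadjusted p below 0.05 were Rxrb with basal cells (r = 0.80) and skeletal muscle (0.77), Rarb A_43_P15897 with gland cells (-0.75) and Rarb A_44_P404472 with immune cells (-0.73), whose r within slides was 0.08, 0.15, -0.72 and -0.12.

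**Figure D4:**
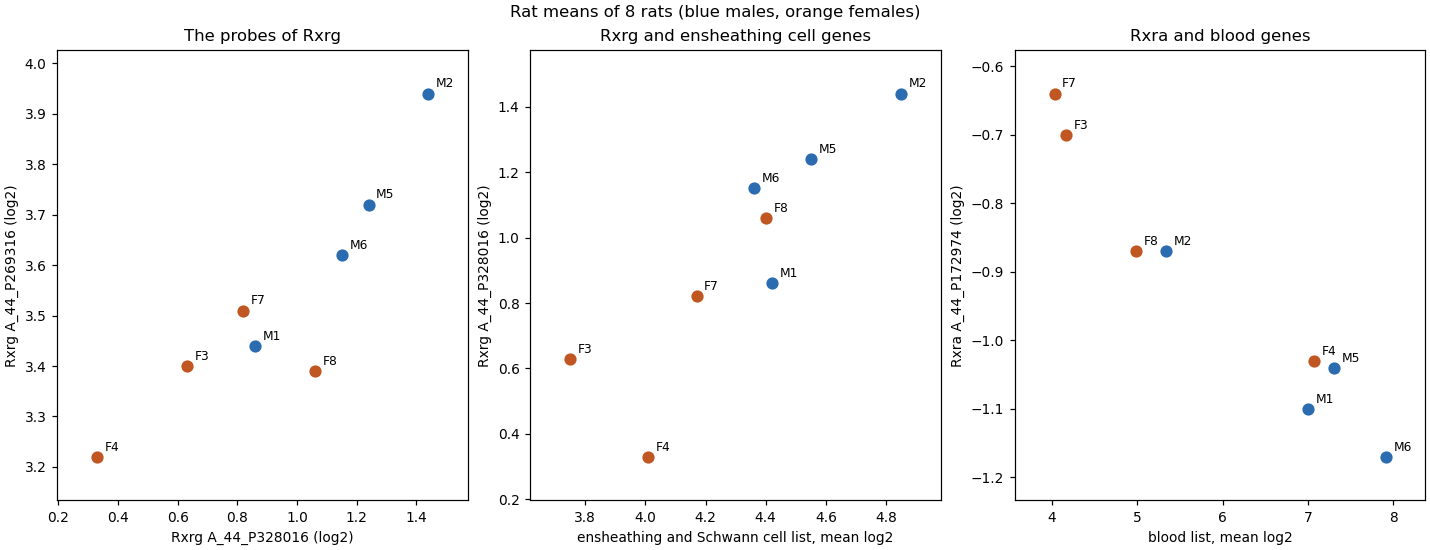
Rat means on the log2 scale of 8 rats (blue males, orange females). Left, the probes of Rxrg against each other (r = 0.90); middle, Rxrg A_44_P328016 (y) against the mean of the ensheathing and Schwann cell list (x, r = 0.86); right, Rxra (y) against the mean of the blood list (x, r = -0.97), where 4 rats lie at 4.03 to 5.34 and 4 at 7.00 to 7.91.

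The second comparison set nostril B against nostril A in the 7 rats with both. No member passed (limma with rat as a block, 0 of 10 at 1% and at an unadjusted p below 0.05, adjusted p from 0.799 to 0.984), where 0% of all 27574 probes passed 1% and 5.89% had an unadjusted p below 0.05. Differences lay between -0.15 (Rbp4, SE 0.11, 95% interval -0.38 to 0.09, B higher in 2 of 7 rats, and -0.03 without female 8) and 0.10 (Rxra, SE 0.08, 95% interval -0.09 to 0.29, B higher in 5 of 7 rats). The nostril difference did not depend on sex for any member at this threshold (interaction, 0 of 10, all adjusted p = 1). Over all probes 0% passed and 2.36% had an unadjusted p below 0.05, while no member did. Single rats differed more: in female 4 the B minus A difference was -0.69 on Rxrg A_44_P269316, -0.56 on A_44_P328016 and 0.43 on Rara.

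The third comparison asked which members vary from one rat to another beyond the difference between nostrils, among rats of 1 sex. At 1% none of the 10 passed (limma F-statistic over 6 contrasts, adjusted p from 0.0503 to 0.925), where 2.79% of 27574 probes passed 1% and 16.1% passed 5%. An unadjusted p below 0.05 was found for 3 members and for 37.1% of all probes. Those 3 were Rarb A_44_P404472 (F = 5.61, adjusted p = 0.0503), Crabp2 (F = 4.88, adjusted p = 0.0642) and Rxrg A_44_P328016 (F = 3.71, adjusted p = 0.103). Rara was at the other end, with F = 0.318. Single rats bore on these values: the F of Rarb A_44_P404472 was 3.10 without male 1 and 13.1 without female 3 (limma adjusted p = 0.0129), that of Crabp2 2.16 without female 4, that of Crabp1 6.51 without male 6 (limma adjusted p = 0.0473) against 2.88 with it, and that of Rbp4 13.2 without female 8 (limma adjusted p = 0.0237) against 2.27 with it. Over the 8 rats the median SD was 0.16 for the members and 0.162 for all tested probes, and 5 of the 10 members lay under the latter.

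Rats 1 to 4 lay on slides 1 and 2 and rats 5 to 8 on slides 3 and 4, so slide and anything else that sets these rats apart cannot be told apart. The study bought 4 rats from each of 2 suppliers, and the labels do not say which rats, so the part of the supplier in the differences between rats given here was not tested. No member passed in this comparison (limma with sex in the model, 0 of 10 at 1% and at an unadjusted p below 0.05, adjusted p from 0.197 to 0.994), against 0.0507% of tested probes at 1%, 4.92% at 5% and 26.1% at an unadjusted p below 0.05. The rats of the slide pairs overlapped for every member and were apart for 11.3% of all tested probes. The largest value was that of Rarb A_44_P404472, with a mean of 1.32 on slides 1 and 2 and 1.02 on slides 3 and 4, a difference of -0.30 (SE 0.13, limma, adjusted p = 0.197). For the other Rarb probe it was 0.07, and for Rxrg A_44_P328016 it was 0.26 (SE 0.15, limma, adjusted p = 0.318). With slide as a block the comparison of rats was narrower, since it compared only rats of like sex within a slide pair. In that fit 1 of all probes, or 0.00363%, passed, and no member did (limma, lowest adjusted p = 0.243). Differences between slide pairs did not enter it.

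The genes whose rat means ran most like the 3 members with the highest F were looked up among 12072 probes of named genes detected on all arrays. For Rarb A_44_P404472 these were Rock2, a protein kinase (r = 0.96 over 8 rats, 0.93 within slides over 15 arrays), Thoc2, of an mRNA export complex (0.96 and 0.84), and Luc7l (0.95 and 0.79). For Crabp2 they were Rbx1, a part of cullin ubiquitin ligases (0.99 and 0.86), Hspe1, a mitochondrial chaperonin (0.98 and 0.88), and Ube2a, a ubiquitin-conjugating enzyme (0.98 and 0.81). For Rxrg A_44_P328016 they were the tight junction gene Cldn5 (0.98 and 0.69), Ifi44 (0.97 and 0.55) and the laminin receptor subunit Itga7 (0.97 and 0.74). With 8 points and 12072 probes to choose from, values this high describe the rats measured and no more.

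The other genes of the pathway were taken from 6 lists with 104 genes on the array. Of their 144 probes, 103 for 79 genes were detected on at least 7 arrays and tested, and 31 were on no array. None passed 5% for sex or nostril (limma). Between rats, 1 passed 1% (0.971%) and 14 passed 5% (13.6%, against 16.1% of all probes), and between slide pairs 0 passed 1% and 7 passed 5% (6.8%, against 4.92%), 4 of them higher and 3 lower on slides 3 and 4.

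Retinoic acid synthesis had 14 of 24 probes tested. Aldh1a1, which oxidizes retinal to retinoic acid, was at 6.34 in males and 6.63 in females (difference 0.29, limma, adjusted p = 0.199), and Aldh1a3 at -1.19 and -0.68 (0.51, limma, adjusted p = 0.139). Aldh1a2 and the dehydrogenase Dhrs9 were not well above background on any array. Rdh10, which makes retinal from retinol, was at -1.22 in each sex. Dhrs3, which turns retinal back to retinol, ranged from 5.41 to 5.86 between rats (F = 6.77, limma, adjusted p = 0.0351), and Dhrs4 from 5.39 to 5.67 (F = 7.77, limma, adjusted p = 0.0275). Adh4 (A_44_P294799, F = 6.99, limma, adjusted p = 0.033) differed between rats as well, its other probe being detected on no array. Rdh5 A_44_P520792 was higher on slides 3 and 4 by 0.75 (SE 0.14, limma, adjusted p = 0.0305). This probe was detected on 12 of 15 arrays and the other Rdh5 probe on none.

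Cyp26b1, which like Cyp26a1 clears retinoic acid, was the 1 pathway probe past 1% between rats (A_42_P693964, F = 49.7, limma, adjusted p = 0.000395). It read 4.21, 4.15, 3.97 and 4.19 in rats 1 to 4 and 3.53, 3.10, 3.52 and 3.39 in rats 5 to 8. The 2 sets of rats did not overlap, with a difference of -0.75 (SE 0.11, limma, adjusted p = 0.0167), and the sexes were alike at 3.75 and 3.77. With slide as a block, where only rats of like sex within a slide pair are compared, the adjusted p was 0.178 (limma). The difference between the 2 sets of rats did not enter that fit. Cyp26a1, whose promoter window holds the other DR5 element, was at 2.73 in males and 2.77 in females and passed in no comparison (F = 3.64, limma, adjusted p = 0.107).

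For retinol storage and transport, Cubn, an uptake receptor, was 0.32 higher on slides 3 and 4 (SE 0.07, limma, adjusted p = 0.0385). Fabp5, which can carry retinoic acid to another receptor, was at 8.61 in males and 8.51 in females. Lrat (A_44_P550748, which stores retinol as esters) was at -1.07 in each sex, its other probe on no array. Stra6, the membrane receptor for Rbp4, was detected on 9 arrays and Ttr, the plasma partner of Rbp4, on 7, and Rbp2 on none.

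Among co-regulators, all 31 probes were tested. The corepressor Ncor1 (5 probes, sex differences from -0.17 to 0.10) passed in no comparison. Ppargc1a (F = 12.9, limma, adjusted p = 0.0101) and Nrip1 A_44_P286863 (F = 8.88, limma, adjusted p = 0.0215) differed between rats and were lower on slides 3 and 4, by -0.66 (limma, adjusted p = 0.0221) and -0.42 (limma, adjusted p = 0.0323), although the other Nrip1 probe gave -0.07. The coactivators Ncoa3 (A_44_P219854, F = 7.70) and Ncoa1 (A_44_P996204, F = 6.89), and Park7 (F = 6.19), differed between rats at 5%, on 1 of 3, 1 of 2 and 1 of 1 probes. Of the receptors that pair with retinoid X receptors or share their sites, Thra (F = 6.00) and Nr4a1 (F = 6.97) did so, while Ppara, Ppard and Pparg passed in no comparison and Vdr was above background on 1 array.

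Of genes known to respond to retinoic acid, Tgm2, a transglutaminase, read 6.65, 7.12, 6.81 and 6.57 in rats 1 to 4 and 7.32, 7.54, 7.39 and 7.22 in rats 5 to 8 (F = 8.85, limma, adjusted p = 0.0216; slide pair difference 0.58, SE 0.11, limma, adjusted p = 0.0301). Its direction was opposite to that of Cyp26b1. Gprc5c was 0.27 higher on slides 3 and 4 (SE 0.06, limma, adjusted p = 0.0344) and Ngfr differed between rats (F = 7.21, limma, adjusted p = 0.0313). Rarres1 (female minus male 0.55, limma, adjusted p = 0.147) and Rarres2 (-0.36, limma, adjusted p = 0.405) passed in no comparison. None of the pathway genes named passed 5% between rats of like sex within a slide pair, in the fit with slide as a block. That fit leaves out differences between slide pairs, so it does not bear on those given here.

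Most of these pathway calls at 5% were lost when 1 rat was left out, often whichever of several rats it was (6 of 8 for Thra, 5 of 8 for Park7). Of the 14 between rats, 3 held whichever rat was left out, among them Cyp26b1 (F at least 38.5) and Ppargc1a (at least 9.52). At its lowest among the others, F was 4.05 for Dhrs3 and 4.62 for Nr4a1 without male 6, 5.06 for Dhrs4 and 3.20 for Park7 without female 7, 4.50 for Adh4 without female 3, 4.68 for Ngfr and 5.67 for Nrip1 without female 8, 4.20 for Ncoa3 without female 4, and 2.18 for Ncoa1 and 4.50 for Thra without male 2, with limma adjusted p from 0.0765 to 0.285. Tgm2 passed except without female 7 (7.10, limma adjusted p = 0.0584). Of the 7 calls between slide pairs, 0 held whichever rat was left out, and none did without female 4 or without female 7, while their differences kept their sign and lay between -0.81 and -0.63 for Cyp26b1 and between 0.50 and 0.68 for Tgm2.

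**Figure D5:**
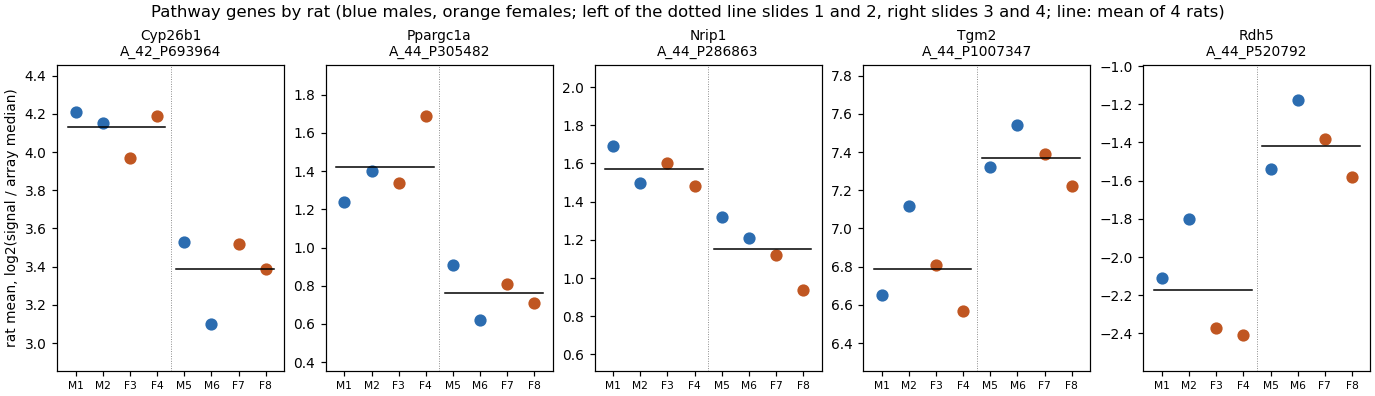
Rat means (y axis, log2 of signal over array median, 1.6 units in every panel) of 5 pathway probes by rat (x axis, M male, F female); the dotted line parts the rats of slides 1 and 2 from those of slides 3 and 4, and the bars are the means of 4 rats. Cyp26b1, Ppargc1a and Nrip1 are lower and Tgm2 and Rdh5 higher in rats 5 to 8, with no overlap of the 2 sets.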

How the data were processed

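The authors hybridized Cy3-labeled RNA to Agilent whole rat genome arrays and deposited, per the file headers, Feature Extraction 9.5.1.1 output with the processed, mean and background intensity of each spot, background-subtracted within the array and not scaled between arrays. They also deposited a table of ratio values. Scaling each processed signal first to its array's median and next to its probe's median gave 98.25% of these ratios within 2%, over 20154 bright spots, and the table served as an alternative only.

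Outlier spots (61 to 175 per array) were left out, each signal was expressed relative to its array's median, a floor of 0.1 of that median was set (-3.32 on the log2 scale), and log2 was taken. Tests covered the 27625 probes well above background on at least 7 arrays (27574 for fits on single arrays). Nostrils of a rat were averaged, except for the nostril and rat comparisons. Differences were tested across all these probes with limma 3.58.1 in R 4.3.3 (eBayes with trend, two-sided, Benjamini-Hochberg), with the study's threshold of 1%. The scripts were tested on simulated data. For arrays, the number of rats limits the precision. Permutation tests enumerated all orders of the 8 rats and were two-sided.

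The members, marker lists and pathway lists were chosen with earlier results of these data known. All member probes are described. Pathway genes are named where a probe passed 5% (17 genes) or where they are main enzymes, carriers, co-regulators or targets, and 2 of the genes this rule takes in are not reported here. Names and rn3 positions of genes came from the annotation of the array, and RefSeq (GRCr8) held all 9 member symbols and 6 of the 10 probe accessions. Alternatives covered scaling, background, ratios, floor, detection filter, trend, slide blocks, the unit of replication and each rat left out.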

Additional observations from a re-analysis of the deposited data

Results flagged for a closer look

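In 30 groups of values (rat means of each sex and the B minus A differences of 7 rats, for each member probe) a value was looked for that stood far from all the others by Dixon's test, which chance meets in about 1 group in 20. It was met by 2 groups, both nostril differences of female 8. For Rbp4 the difference was -0.85, with the other 6 rats between -0.22 and 0.14. For Rarb A_43_P15897 it was 0.20, with the others between -0.11 and 0.00. What sets female 8 apart was not tested.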

How the results depend on the processing

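In each setting tried, 0 of the 10 member probes passed 1% in the comparisons of sex, nostril, rat and slide pair. The count over all probes moved more, for sex from 3 (detected on at least 11 arrays) to 1031 (15 arrays as independent), with 6 by deposited ratios, 8 by the methods' t-test, 21 with rat as a random block, 46 with slide pair and 641 with slide as a block (slide 1 alone), for rats from 1 (slide as a block) to 2416 (all 8 rats as 1 factor), and for slide pair from 0 (deposited ratios) to 26. For rats, the fit with slide as a block compared only rats of like sex within a slide pair. The methods' t-test gave 0 members and 1604 of all probes an unadjusted p below 0.01. Without nostrils paired by rat (no block), 0 members passed.

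At 5%, Rarb A_44_P404472 and Crabp2 passed between rats under 75th percentile scaling (limma adjusted p = 0.034 and 0.0315) and under normexp with quantile normalization (0.0244 and 0.0168), Rarb A_44_P404472 also among probes detected on at least 11 arrays (0.0496), it and Rxrg A_44_P328016 with all 8 rats as 1 factor (0.0367 and 0.0204), and Rxrg A_44_P328016 passed for sex with 15 arrays as independent (0.0288).

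Of the 14 pathway calls between rats at 5%, 7 held with deposited ratios, 7 without trend, 5 without the detection filter, 10 with the other detection call, 12 with normexp and quantile normalization and 13 with 75th percentile scaling, which Dhrs3 did not pass (limma adjusted p = 0.069). Of the 7 between slide pairs, 5 held with deposited ratios, 2 without a sex term and 1 without the detection filter.

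Both Rxrg sex differences stayed below 0 throughout, at -0.38 to -0.21 and -0.58 to -0.33 with 1 rat left out. Signs turned with slide as a block for Rarb A_43_P15897 (-0.02), Rarb A_44_P404472 (-0.47), Rxrb (0.03), Crabp1 (0.05) and Crabp2 (0.10), because that fit compares the 1 female array of slide 1 with its 3 male arrays, and its values equal the differences on slide 1. With 1 rat left out they turned for Rarb A_44_P404472 (-0.04 to 0.21), Rbp4 (-0.19 to 0.06) and Crabp2 (-0.09 to 0.03), and for the slide pair difference of Rxrg A_44_P269316 (-0.02 to 0.18). The cause of these was not tested. The correlation of the Rxrg probes was 0.86 to 0.97 and that of Rxra with blood -0.98 to -0.94 over 3 other scalings and sources and with 1 rat left out, settings chosen after seeing the data. With 4 rats of each sex, intervals are wide, and probes near background are compressed by the floor.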
